A study of Mus musculus with 35 samples.

Results

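The mitochondrial ribosomal protein genes of the mouse, the nuclear genes with symbols that start with Mrpl or Mrps and a number, were followed over 9 groups of sorted CD8 T cells. They were found by symbol among the protein-coding genes of GENCODE M21, which gave 78 genes (49 named Mrpl and 29 named Mrps) of the 52636 genes in the table of counts. RNA had been sequenced from CD8 T cells of C57BL/6 mice in 35 libraries, 4 in each group and 3 in WT thymus. All mice carried 1 copy of a Cre transgene written as Lcre+/- in the labels, which do not give its promoter, and in the published study it is the T cell transgene driven by Lck. WT mice had 2 wild-type copies of Dot1l (Dot1Lwt/wt), Het mice had 1 floxed copy (Dot1Lfl/wt) and KO mice had 2 floxed copies (Dot1Lfl/fl). Dot1l encodes a histone methyltransferase. Each genotype was sampled in 3 subsets: single positive CD8 cells from thymus, and from spleen the CD44- CD62L+ naive and the CD44+ CD62L+ memory cells. The ages of the mice are not given in the sources used here.

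The mitochondrial ribosome is built from RNAs that the mitochondrial genome encodes and from proteins that nuclear genes encode and the cytosol delivers. It makes the few respiratory chain and ATP synthase subunits that mitochondria still encode. Its proteins have replaced much of the RNA of the bacterial ribosome, so that many of them have no bacterial counterpart. Naive T cells are quiescent, and mitochondrial biogenesis rises when T cells are activated.

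Libraries held 4809509 to 16879636 counts, with a median of 10406516. The targeted gene Dot1l did not have a lower mean in KO than in WT libraries of any subset, with 77.3 ± 1.68 CPM (counts scaled to library size, ± SD) in KO thymus (n = 4) and 67.0 ± 5.20 in WT thymus (n = 3), 55.7 and 49.5 for naive and 45.8 and 45.4 for memory cells. A count over the whole gene does not test for a deleted exon. The 8 CD8 T cell genes had counts in every group, but at unequal levels. Lck stood at 792 to 1123 CPM, Cd3e at 177 to 335 CPM and Cd247 at 29.5 to 54.2 CPM. The others were low, with maxima of 14.8 CPM for Cd8a, 14.7 for Cd3g, 11.2 for Cd8b1, 10.5 for Trac and 4.09 for Cd3d. Cd4 stood at 0 to 0.266 CPM. Summed over 9 B cell genes the level was 5.54 to 98.8 CPM in all libraries but a naive KO library at 157 CPM. Of the CD4 T cell markers, Zbtb7b stood at 0.548 to 8.39 CPM in naive KO and 0 to 0.663 CPM in naive WT libraries. Foxp3 stood at 0 to 0.675 CPM in naive KO libraries. Comparisons with naive KO cells were also run without naive KO libraries 3 and 4, a choice made after the data were seen.

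The promoter sequences of 4 members are shown because Mrps18c and Mrps11 are the genes whose difference between KO and WT was itself different in naive and thymic cells, because Mrpl46 starts head to head with Mrps11, and because Mrpl52 was called in the largest number of comparisons between genotypes. Each runs 5′ to 3′ on the gene's own strand from 250 bases before to 50 bases after the RefSeq start site (GRCm38.p6). Capitals mark the searched motifs of NRF1 (named only), of ETS factors such as GABPA (CCGGAAG) and of YY1 (AANATGGC), on either strand. The windows are chr5:100798509-100798808 (plus strand) for Mrps18c, chr7:78782881-78783180 (plus strand) for Mrps11, chr7:78783040-78783339 (minus strand) for Mrpl46 and chr14:54426659-54426958 (plus strand) for Mrpl52.
Mrps18c: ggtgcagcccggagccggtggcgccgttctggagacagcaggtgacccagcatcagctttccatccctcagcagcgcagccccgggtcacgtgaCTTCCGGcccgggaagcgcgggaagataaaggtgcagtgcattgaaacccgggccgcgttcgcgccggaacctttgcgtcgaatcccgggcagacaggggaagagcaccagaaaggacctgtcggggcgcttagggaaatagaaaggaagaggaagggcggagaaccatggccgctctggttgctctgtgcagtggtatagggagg
Mrps11: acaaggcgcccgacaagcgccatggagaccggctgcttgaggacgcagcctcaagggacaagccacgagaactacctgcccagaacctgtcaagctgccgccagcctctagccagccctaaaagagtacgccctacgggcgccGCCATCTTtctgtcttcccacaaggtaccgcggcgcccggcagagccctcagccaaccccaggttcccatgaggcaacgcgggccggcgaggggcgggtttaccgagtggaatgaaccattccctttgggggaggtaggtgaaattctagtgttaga
Mrpl46: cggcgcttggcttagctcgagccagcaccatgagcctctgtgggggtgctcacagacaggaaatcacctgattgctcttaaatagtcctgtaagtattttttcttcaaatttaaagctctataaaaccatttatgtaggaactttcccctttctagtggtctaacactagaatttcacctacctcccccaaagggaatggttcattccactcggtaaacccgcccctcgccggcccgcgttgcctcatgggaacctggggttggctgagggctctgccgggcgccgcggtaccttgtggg
Mrpl52: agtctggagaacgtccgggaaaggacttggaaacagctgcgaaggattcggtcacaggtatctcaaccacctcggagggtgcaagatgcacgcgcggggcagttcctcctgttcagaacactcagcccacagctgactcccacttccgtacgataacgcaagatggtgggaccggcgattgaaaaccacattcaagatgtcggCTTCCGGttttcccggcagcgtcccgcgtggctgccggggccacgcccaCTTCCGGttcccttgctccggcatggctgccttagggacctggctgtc

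The Mrps18c window held an ETS motif 156 bases before the start, and the Mrps11 window held a YY1 motif 107 bases before it. Mrpl52 had an ETS motif 47 bases before the start and another that began 2 bases after it. The RefSeq start sites of Mrps11 and Mrpl46 lie 42 bases apart and point away from each other, the windows of this pair share 141 bases, and none of the 3 motifs was found in the letters of the Mrpl46 window. RefSeq windows were matched for 69 of the 78 members. At least 1 window held the ETS motif in 37.7% of these members and in 13.4% of 16478 coding genes, the YY1 motif in 30.4% and 7.6%, and the NRF1 motif in 18.8% and 7.5%. The SP1 motif (GGGCGG) was about as frequent in the members as elsewhere (49.3% and 51.1%), and the TATA motif (TATAAA) was found in 7.2% of members and 14.3% of coding genes. Windows of members held a median of 21 CpG, against 7 over all windows, and the shares were not adjusted for this. These shares describe letters in a window and were not set against any measurement of binding. In GENCODE M21 (GRCm38), Mrps18c (ENSMUSG00000016833) has 5 exons at chr5:100798627-100804471 and Mrpl52 (ENSMUSG00000010406) has 3 exons at chr14:54426909-54429756, both without an exon of another gene on the opposite strand. On the same strand, 250 of the 1076 exon bases of Mrps18c overlap exons of Gm43511. Mrps11 (ENSMUSG00000030611) lies at chr7:78783119-78792989 and Mrpl46 (ENSMUSG00000030612) at chr7:78775236-78783531, and the exons of this pair overlap over 173 bases.

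By their place in the ribosome, 51 members encode large subunit proteins and 26 small subunit proteins. Mrps18a and Mrps30 belong to the large subunit despite their names. Mrps36 encodes a protein of the alpha-ketoglutarate dehydrogenase complex and not a ribosomal subunit. Of the members, 30 large and 16 small subunit proteins have a bacterial homolog, and 21 and 10 are specific to mitochondria.

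Of the 78 members, 54 had enough counts to be tested: 21 of 30 large subunit homologs, 16 of 21 large subunit proteins specific to mitochondria, 10 of 16 small subunit homologs and 7 of 10 small subunit proteins specific to mitochondria. The 24 others had at most 14 counts in any library, and are described by that limit alone. They were Mrpl11, Mrpl14, Mrpl20, Mrpl23, Mrpl30, Mrpl33, Mrpl35, Mrpl36, Mrpl41, Mrpl50, Mrpl51, Mrpl53, Mrpl55, Mrpl57, Mrps6, Mrps10, Mrps12, Mrps14, Mrps17, Mrps28, Mrps33, Mrps34, Mrps35 and Mrps36. Mrpl53 had no count in any library, and 695 of its 790 exon bases overlap exons of Gm42688 on the same strand. Mrps34 overlaps Nme3 on the same strand over 763 of 2064 exon bases and Mapk8ip3 on the opposite strand over 1309. The part of these overlaps in the low counts was not tested. Mrps12, the homolog of a protein of the bacterial decoding centre, had at most 6 counts, Mrpl41 at most 3, Mrps34 at most 2 and Mrps36 at most 6.

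Levels were spread unevenly over the members. Per kilobase of exon the highest levels were those of Mrpl43 (36.2 CPM per kb), Mrps18c (33.1), Mrpl27 (18.4), Mrpl52 (16.02) and Mrpl28 (8.87). The lowest among tested members were those of Mrpl48 (0.0752 CPM per kb), Mrps5 (0.105), Mrpl19 (0.127), Mrpl17 (0.165) and Mrps27 (0.270). Without the division by length, mean CPM over all libraries ran from 0 to 55.0, and the 7 highest members held 50.7% of the summed CPM. Mrpl43, a large subunit protein specific to mitochondria, had 55.0 CPM, Mrps18c 35.6, Mrpl15 25.5, Mrps25 24.0, Mrps9 22.6, Mrpl3 20.7 and Mrpl27 18.1. Exons of 28 members overlap an exon of a gene on the opposite strand, among them Mrpl43 with Twnk over 507 bases and Mrps25 with Nr2c2 over 4590 bases, and the strand setting of the counting is not given in the sources used here. Exons of 8 members overlap an exon of another gene on the same strand, among them Mrpl53, Mrps34 and Mrps18c.

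**Figure D1:**
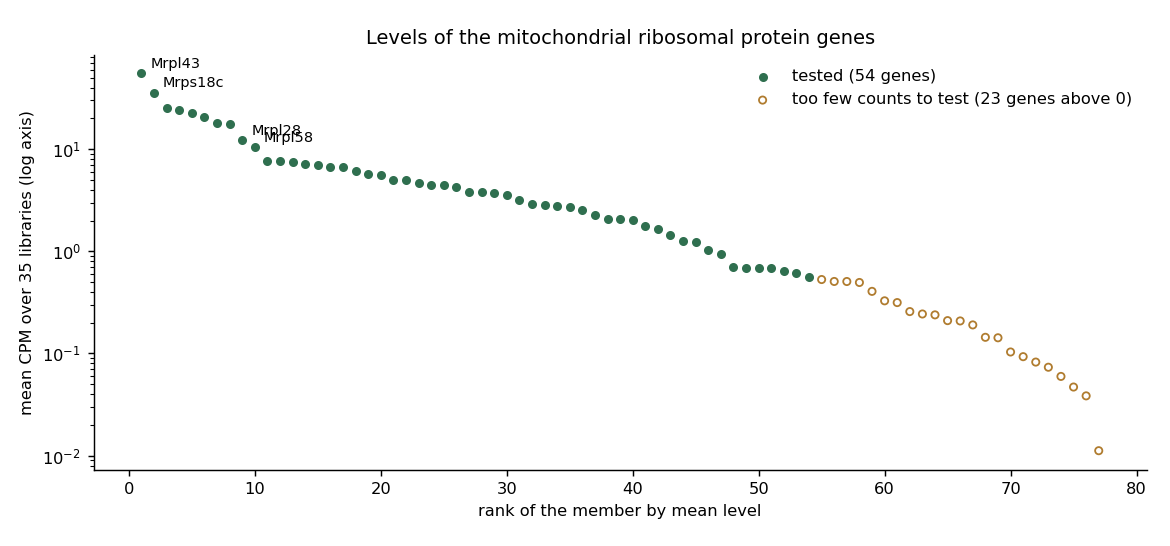
Mean CPM over 35 libraries (log axis) of the mitochondrial ribosomal protein genes, ranked; filled points are the 54 tested members and open points the 23 untested members above 0. Mrpl43 at 55.0 CPM and Mrps18c at 35.6 CPM stand at the top, and Mrpl53, with no count, is not drawn.

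Counts also set the precision. The median tested member had 40.4 counts per library, against 147.5 for the median tested gene. A mean under 100 counts was found for 44 of 54 members (81.5%) and for 43.5% of all tested genes. In KO against WT naive libraries the standard error of the log2 fold change had a median of 0.23 over the members and ran from 0.10 to 0.53. A difference has to lie well above its standard error to be called, so differences near these values were not detectable at this depth for most of the members.

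The summed level of the members lay between 364 and 442 CPM in the group means, and how the genotypes compared depended on the scaling. The 78 members summed to 442 ± 11.03 CPM (SD, n = 4) in KO thymus, 413 ± 20.9 in Het thymus and 393 ± 13.6 in WT thymus (n = 3). In memory cells the sums were 413 ± 5.39 CPM in WT, 402 ± 8.57 in Het and 391 ± 7.85 in KO libraries (n = 4 each). In naive cells they were 385 ± 7.19 CPM in WT, 370 ± 17.2 in Het and 364 ± 9.70 in KO libraries (n = 4 each). From high to low the groups were KO thymus, Het thymus, WT memory, Het memory, WT thymus, KO memory, WT naive, Het naive and KO naive, and the library values of every neighbouring pair in this order overlapped. The KO thymus libraries (428 to 455 CPM) lay above all WT thymus libraries (380 to 408 CPM). KO memory libraries (380 to 399 CPM) lay below WT memory libraries (406 to 419 CPM), and KO naive libraries (357 to 378 CPM) overlapped WT naive libraries (377 to 394 CPM). With libraries centred on the mean log level of all genes in place of TMM scaling, the sums were 399 CPM in WT, 417 in Het and 416 in KO thymus, 403, 385 and 352 in WT, Het and KO naive cells, and 422, 413 and 369 in WT, Het and KO memory cells. KO thymus was then no higher than Het thymus and under WT memory, and the gap between KO and WT was narrower in thymus than in either splenic subset. The sums are carried by a few members, and no test was run on them.

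**Figure D2:**
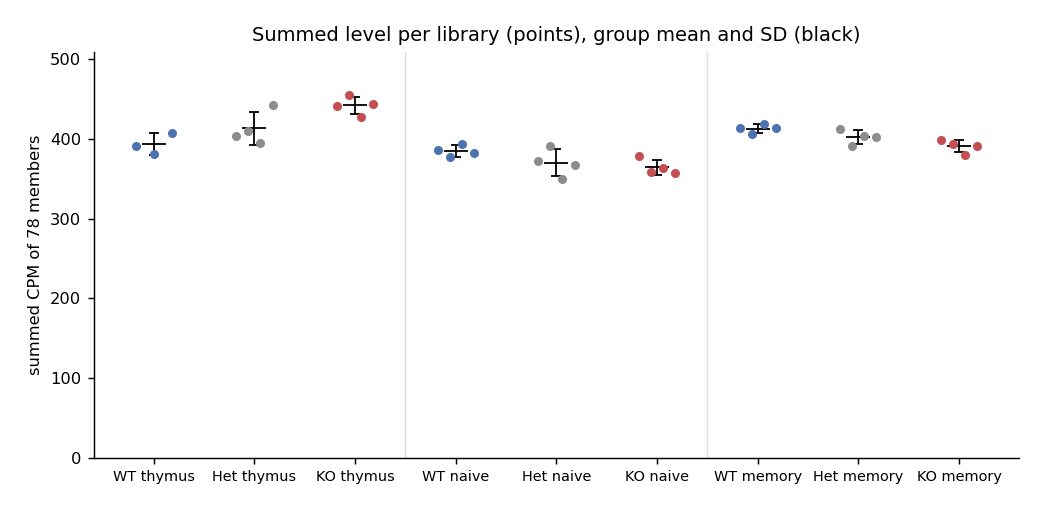
Summed CPM of the 78 members in each library (points: blue WT, grey Het, red KO), with group mean and SD in black. All 4 KO thymus libraries lie above the 3 WT thymus libraries, and the KO memory libraries lie below the WT memory libraries.

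The small subunit differed between KO and WT libraries in the same directions as the whole. Its 26 members summed to 147 ± 5.31 CPM in KO thymus and 124 ± 7.38 in WT thymus, with no overlap of library values (141 to 154 and 116 to 130). In naive cells they summed to 109 ± 2.33 CPM in KO and 121 ± 3.48 in WT libraries, again with no overlap (106 to 112 and 119 to 126). Mrps18c is a large part of these small subunit sums. It stood at 43.6 to 47.9 CPM in KO and 34.6 to 38.9 CPM in WT thymus libraries, and at 25.2 to 30.9 and 29.7 to 36.4 CPM in KO and WT naive libraries. The 51 large subunit members summed to 295 ± 14.1 CPM in KO thymus and 269.7 ± 11.997 in WT thymus, with no overlap (280 to 313 and 256 to 277), and to 256 ± 7.68 and 264 ± 4.79 in KO and WT naive libraries, which overlapped. In memory cells the small subunit sums overlapped (113.2 to 122.4 CPM in KO and 121.9 to 134.3 in WT libraries), and so did the large subunit sums (263 to 280 and 276 to 292 CPM).

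The members that varied most over the 9 group means were Mrpl19 (3.25-fold between the highest and the lowest group mean), Mrps11 (2.29-fold), Mrpl48 (2.27-fold), Mrps5 (2.26-fold) and Mrpl45 (2.14-fold). Mrpl19, Mrps5 and Mrpl48 had means of only 6.57 to 7.17 counts per library, and Mrps11 26.9. The members that varied least were Mrpl4 (1.17-fold), Mrpl43 (1.21-fold), Mrpl3 (1.23-fold), Mrpl10 (1.23-fold) and Mrps9 (1.24-fold). Mrpl43 lay between 49.7 ± 2.40 CPM in KO memory and 59.97 ± 9.76 CPM in KO thymus (n = 4 each). The library values of these groups overlapped (47.1 to 52.9 CPM in KO memory and 48.7 to 72.55 CPM in KO thymus).

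Levels are given next for members chosen for their roles. Mrpl12, which in addition to its place in the large subunit binds the mitochondrial RNA polymerase, ran from 4.495 ± 0.712 CPM in KO naive to 6.84 ± 1.10 CPM in KO thymus. Mrpl58, a peptidyl-tRNA hydrolase that frees stalled ribosomes, ran from 9.08 ± 0.906 CPM in Het naive to 11.4 ± 1.32 CPM in WT thymus. Mrps18a ran from 2.45 ± 0.231 CPM in Het thymus to 3.27 ± 0.632 CPM in WT thymus, Mrps30 from 3.03 ± 0.799 CPM in KO naive to 4.61 ± 1.62 CPM in Het thymus, and Mrps5 from 0.416 ± 0.287 CPM in Het naive to 0.942 ± 0.140 CPM in WT memory.

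Tests used edgeR's quasi-likelihood F test on counts, fitted over all 35 libraries, with Benjamini-Hochberg adjustment over 10296 genes, and a gene with an adjusted p under 0.05 is called. Fold changes are log2 values with their standard errors. Each of the 3 comparisons of KO with WT used its own WT libraries. The comparisons between subsets reuse the libraries of the comparisons between genotypes.

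In the thymus, Mrps18c and Mrpl52 were higher in KO than in WT cells, and these 2 of 54 members were the called ones (18.6% of all tested genes were called, and 11.9% were called higher). Mrps18c, the small subunit protein that takes the place of its bacterial relative, stood at 34.6, 34.9 and 38.9 CPM in WT libraries and at 47.9, 43.6, 47.6 and 46.0 CPM in KO libraries. The groups did not overlap, and the log2 fold change was 0.36 ± 0.11 (edgeR adjusted p = 0.0156). Mrpl52, a large subunit protein specific to mitochondria, stood at 14.4, 13.7 and 15.3 CPM in WT and at 15.0, 21.3, 16.9 and 21.7 CPM in KO libraries. Its groups overlapped through 1 KO library, and the log2 fold change was 0.38 ± 0.13 (edgeR adjusted p = 0.0388). The median log2 fold change of the 54 members was 0.17, with 44 above and 10 below 0, beside 0.02 over all tested genes. By subunit the median was 0.29 over 17 small subunit members and 0.13 over 37 large subunit members. Library values did not overlap for 7 members, all higher in KO (Mrps25, Mrps18c, Mrpl16, Mrps11, Mrpl48, Mrpl15 and Mrps27), against 28.4% of all tested genes.

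These calls depended on the scaling. With mean log centring, which moved the median of all genes in this comparison by 0.105 and the share of higher genes among all calls from 63.7% to 39.8%, no member was called: Mrps18c had 0.25 (edgeR adjusted p = 0.107) and Mrpl52 0.28 (edgeR adjusted p = 0.14). The Mrps18c call was also lost without WT thymus library 1 or 2 (edgeR adjusted p = 0.0772 and 0.0792), and that of Mrpl52 without any 1 of the 3 WT libraries or without KO library 2 or 4 (edgeR adjusted p = 0.0627 to 0.159). The block on replicate number also ended the Mrpl52 call (edgeR adjusted p = 0.0542). Genes of cycling cells moved with the groups: 8 of 11 tested cycling markers were called higher in KO thymus, and the 12 markers summed to 2476 to 2986 CPM in KO and 1369 to 1789 CPM in WT libraries. The 5 markers of thymic double positive cells summed to 15.5 to 28.1 CPM in KO and 7.24 to 15.4 CPM in WT libraries, 1 of 6 tested B cell markers was called higher and 2 of 8 CD8 T cell markers lower. Their part in the member levels was not tested. Against Het thymus libraries, Mrpl52 was the called member (19.1% of all tested genes were called), at 12.3, 12.7, 11.95 and 16.6 CPM in Het libraries, with a log2 fold change of 0.49 ± 0.12 (edgeR adjusted p = 0.00342). The groups overlapped through Het library 4, and Mrpl52 remained called in each of the 17 other fits run. Mrps18c stood at 47.5, 40.2, 44.2 and 37.9 CPM in Het thymus, overlapping the KO values.

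In naive cells, Mrps11 was the 1 called member in KO against WT libraries, and it was lower (18.2% of all tested genes were called, and 7.11% were called lower). Mrps11, the homolog of a bacterial protein of the small subunit platform, stood at 3.25, 2.81, 2.37 and 2.62 CPM in WT and at 1.01, 1.97, 1.83 and 1.82 CPM in KO libraries. The groups did not overlap, and the log2 fold change was -0.72 ± 0.26 (edgeR adjusted p = 0.0497). This call is at the threshold: it was lost in 7 of 10 other fits, among them RLE scaling (edgeR adjusted p = 0.0521), the replicate block (edgeR adjusted p = 0.0536), the fit without KO libraries 3 and 4 (edgeR adjusted p = 0.0782), a sex covariate (edgeR adjusted p = 0.0682) and DESeq2 (DESeq2 adjusted p = 0.0838), and without WT library 1, 2 or 4 or KO library 1, 3 or 4 (edgeR adjusted p = 0.0616 to 0.205). Mrpl46, its head to head neighbour, stood at 1.52 to 2.09 CPM in WT and 1.41 to 2.28 CPM in KO naive libraries and was not called (log2 fold change -0.09 ± 0.33, edgeR adjusted p = 0.897). The median over the members was -0.11 (all tested genes 0.00), with 17 above and 37 below 0, and 3 members did not overlap, all lower (20.1% of all tested genes did not overlap). In the same comparison 2 of 8 CD8 T cell markers were called lower, and 1 of 2 CD4 T cell markers and 1 of 11 cycling markers were called higher, and their part was not tested. Against Het naive libraries, Mrpl52 was called higher in KO (16.9% of all tested genes were called), at 14.5, 15.4, 12.3 and 14.4 CPM in Het and 18.5, 16.5, 20.5 and 17.0 CPM in KO libraries, which did not overlap. Its log2 fold change was 0.36 ± 0.13 (edgeR adjusted p = 0.0434), and the call was lost without Het library 1, 3 or 4, without KO library 1 or 3 (edgeR adjusted p = 0.071 to 0.165) with mean log centring (edgeR adjusted p = 0.156) and without KO libraries 3 and 4 together (edgeR adjusted p = 0.239).

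In memory cells, Mrps18b and Mrpl15 were lower in KO than in WT libraries, 2 of 54 members beside 22.2% of all tested genes (9.32% called lower). Mrps18b, another relative of the same bacterial protein as Mrps18c but at another place in the small subunit, stood at 5.67, 5.63, 5.60 and 5.92 CPM in WT and at 3.57, 3.47, 4.51 and 3.95 CPM in KO libraries. The groups did not overlap, and the log2 fold change was -0.56 ± 0.17 (edgeR adjusted p = 0.0143). Mrps18b was also the called member against Het memory libraries (-0.57 ± 0.18, edgeR adjusted p = 0.0147, with 20.2% of all tested genes called), where the Het libraries stood at 6.58, 5.44, 6.04 and 4.91 CPM. Both Mrps18b calls were lost without KO memory library 1 (edgeR adjusted p = 0.0524 and 0.0534), and the call against Het also without Het memory library 1 (edgeR adjusted p = 0.0733). Exons of Mrps18b overlap those of Gm16279 on the opposite strand over 638 bases. Mrpl15, a large subunit homolog, stood at 24.0, 29.0, 24.4 and 28.9 CPM in WT and at 21.3, 22.2, 22.1 and 21.3 CPM in KO memory libraries. Its log2 fold change was -0.29 ± 0.11 (edgeR adjusted p = 0.0411), and the call was lost without WT library 2 or 4 or any 1 of the KO libraries (edgeR adjusted p = 0.0516 to 0.137), and by DESeq2 (DESeq2 adjusted p = 0.0546). With no filter on low counts neither Mrps18b (edgeR adjusted p = 0.0657) nor Mrpl15 (edgeR adjusted p = 0.0715) was called. The median over the members was -0.07 (all tested genes 0.01), and 5 members did not overlap, 4 of them lower (25.9% of all tested genes did not overlap). Here 6 of 11 cycling markers were called higher in KO (692 to 759 CPM summed in KO, 417 to 542 in WT libraries). Of 2 tested CD4 T cell markers 1 was called higher in KO. Of that list, Zbtb7b stood at 13.4 to 24.8 CPM in KO and 4.89 to 5.915 CPM in WT memory libraries. Foxp3 stood at 0.0937 to 0.297 CPM in KO and 0.179 to 0.544 CPM in WT libraries, and Cd4 at 0 CPM in both. Of 2 tested thymic double positive markers 1 was called higher. The 5 markers of that list summed to 0 to 0.342 CPM in KO and 0 to 0.219 CPM in WT libraries. Of 8 CD8 T cell markers 4 were called lower. The part of these markers was not tested. Mean log centring gave 4 lower members in each of the 2 memory comparisons and 3 in KO against WT naive, and the share of higher genes among all calls went from 58% to 36% (memory) and from 61% to 35.5% (naive).

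No member was called between Het and WT libraries by edgeR's test or by DESeq2. At an unadjusted p under 0.05 edgeR gave 2 of 54 members for thymus, 0 for naive and 4 for memory cells, and DESeq2 gave 2, 0 and 3. Of all tested genes 0%, 0% and 0.00971% were called in these 3 comparisons. The median log2 fold change of the members was 0.06 (thymus), -0.07 (naive) and -0.05 (memory).

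**Figure D3:**
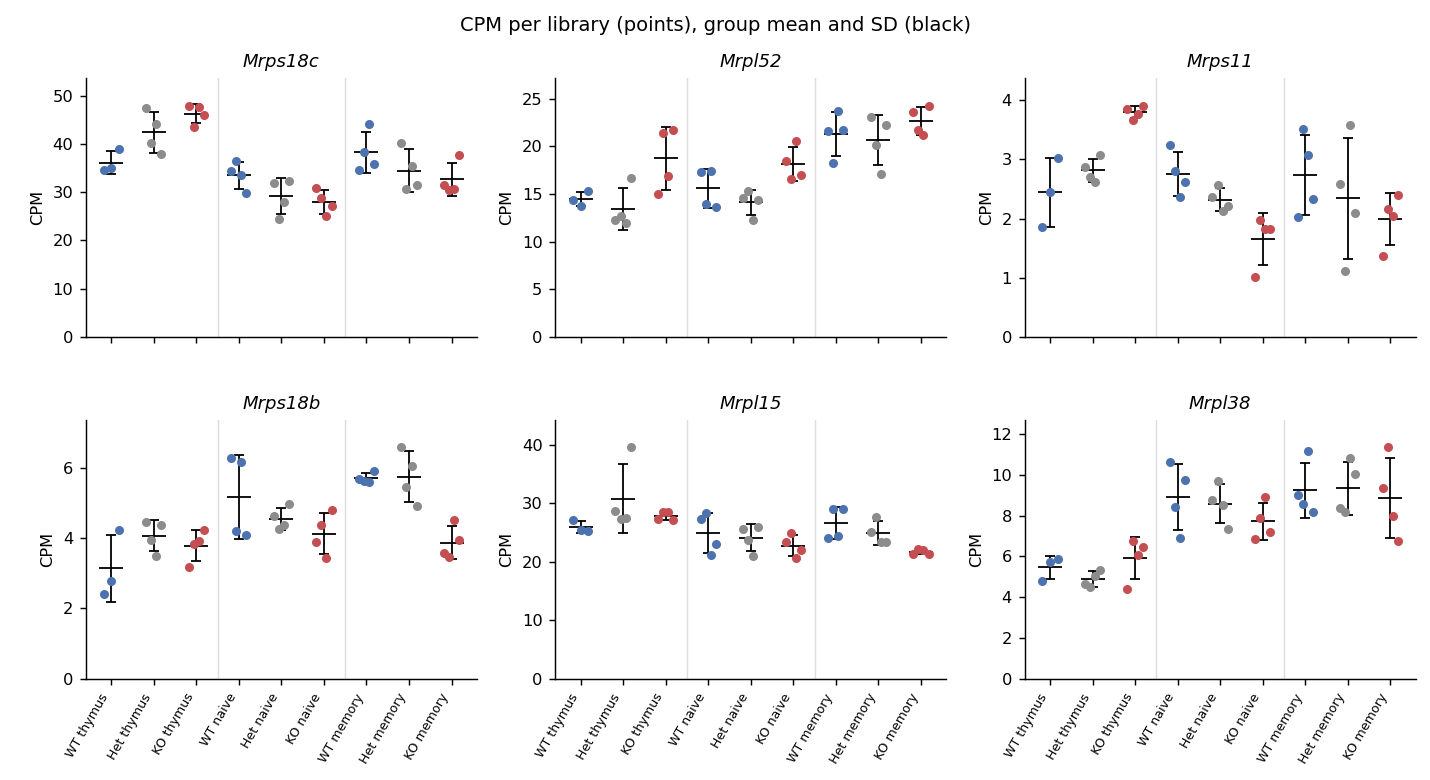
CPM per library (points: blue WT, grey Het, red KO) with group mean and SD in black for 6 members called in at least 1 main comparison; each vertical axis starts at 0. Mrps11 is highest in the KO thymus libraries (3.67 to 3.91 CPM) and lowest in the KO naive libraries (1.01 to 1.97 CPM), and Mrps18b is lower in KO than in WT memory libraries.

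More members were called between naive and thymic cells than between genotypes, and more of all genes were called as well. In WT cells 3 of 54 members were called between naive and thymic libraries, 2 higher and 1 lower in naive cells, beside 32.2% of all tested genes (15.3% higher and 16.9% lower). In Het cells 8 were called, 2 higher and 6 lower, beside 39.5% of all tested genes (19.8% higher and 19.7% lower). In KO cells 14 were called, 1 higher and 13 lower, beside 44.1% (22.4% higher and 21.7% lower). The median log2 fold change of the members was -0.01 in WT, -0.17 in Het and -0.27 in KO cells, beside 0.03, 0.02 and 0.05 over all tested genes. All 3 comparisons use libraries of their own genotype.

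In WT cells, Mrpl38, a large subunit protein specific to mitochondria, rose from 4.79, 5.70 and 5.86 CPM in thymus to 10.6, 8.43, 6.91 and 9.73 CPM in naive libraries. The groups did not overlap, and the log2 fold change was 0.68 ± 0.18 (edgeR adjusted p = 0.00283), called in each of the 16 other fits run. Mrps18b rose by 0.69 ± 0.20 (edgeR adjusted p = 0.0058) from 2.40, 2.79 and 4.23 CPM to 6.28, 4.22, 6.15 and 4.08 CPM, with overlap, and its call was lost without WT thymus library 2 (edgeR adjusted p = 0.0565). Mrps22, a small subunit protein specific to mitochondria, stood at 4.13, 5.87 and 6.64 CPM in thymus and 2.60, 2.94, 4.26 and 3.25 CPM in naive libraries. It was lower by edgeR with a log2 fold change of -0.75 ± 0.24 (edgeR adjusted p = 0.012), and the call was lost without WT thymus library 3 (edgeR adjusted p = 0.0809). Library values did not overlap for 4 members (37.5% of all tested genes).

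In Het cells Mrpl38 rose again, from 4.66, 4.51, 5.05 and 5.35 CPM in thymus to 8.74, 9.71, 8.51 and 7.36 CPM in naive libraries (log2 fold change 0.81 ± 0.16, edgeR adjusted p = 8.94e-05). Mrps24 was called higher at 0.69 ± 0.28 (edgeR adjusted p = 0.0459). Mrps18c fell from 37.9 to 47.5 CPM in thymus to 24.5 to 32.3 CPM in naive libraries, with no overlap (log2 fold change -0.54 ± 0.10, edgeR adjusted p = 3.12e-05). Mrps21, Mrpl15, Mrpl18, Mrpl42 and Mrps22 were the other lower members, with log2 fold changes from -0.98 (Mrps21) to -0.35 (Mrpl15). Mrpl38, Mrps18c and Mrps21 kept their calls in every fit. Mrps24 lost its call in 5 of 9 alternatives, among them RLE scaling (edgeR adjusted p = 0.055) and DESeq2 (DESeq2 adjusted p = 0.089), Mrps22 in 4 of 9, among them DESeq2 (DESeq2 adjusted p = 0.0562), Mrpl42 in 3 of 9 and Mrpl18 in 1 of 9. The other 5 lost theirs without 1 of the libraries: Mrpl15 without Het thymus library 4, Mrpl18 without thymus 1 or 2 or naive 1 or 3, Mrpl42 without thymus 2 or 4 or naive 2, 3 or 4, Mrps22 without thymus 1, 3 or 4 or naive 1, 2 or 3, and Mrps24 without thymus 1, 3 or 4 or naive 2 or 3 (edgeR adjusted p = 0.0501 to 0.294).

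In KO cells the members that fell came from both subunits. Of the small subunit, Mrps18c fell from 43.6 to 47.9 CPM in thymus to 25.2 to 30.9 CPM in naive libraries (log2 fold change -0.73 ± 0.10, edgeR adjusted p = 1.03e-07). Mrps11 fell from 3.86, 3.67, 3.77 and 3.91 CPM to 1.01, 1.97, 1.83 and 1.82 CPM (-1.20 ± 0.24, edgeR adjusted p = 7.54e-05). Mrps25, at 31.1, 31.3, 30.1 and 26.6 CPM in thymus and 20.4, 20.1, 23.4 and 21.1 CPM in naive libraries, fell by 0.48 on the log2 scale (edgeR adjusted p = 0.0012), and its exons overlap those of Nr2c2. None of these 3 pairs of groups overlapped.

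Of the large subunit in KO cells, Mrpl13 (-0.84 ± 0.20), Mrpl45 (-0.91 ± 0.30), Mrpl12 (-0.60 ± 0.16), Mrpl47 (-0.60 ± 0.17) and Mrpl28 (-0.41 ± 0.12) fell, with edgeR adjusted p from 0.000621 to 0.0125. Mrpl45, the protein that ties the ribosome to the inner membrane, stood at 1.51, 2.73, 2.20 and 2.63 CPM in thymus and 1.44, 1.21, 0.968 and 1.24 CPM in naive libraries. Mrpl18, Mrpl42, Mrpl49, Mrpl15 and Mrps9 were also called lower, with log2 fold changes from -0.72 to -0.29. Mrpl9 was the 1 member called higher (0.54 ± 0.17, edgeR adjusted p = 0.00864). Mrpl38 was not called in KO cells, but its libraries did not overlap. They stood at 4.41, 6.74, 6.04 and 6.46 CPM in thymus and 6.84, 7.885, 8.92 and 7.21 CPM in naive cells. With mean log centring Mrpl38 was called higher. By class, lower calls were made for 6 of 21 large subunit homologs, 3 of 16 large subunit proteins specific to mitochondria, 3 of 10 small subunit homologs and 1 of 7 small subunit proteins specific to mitochondria. Library values did not overlap for 14 members, 13 of them lower in naive cells (39.7% of all tested genes did not overlap).

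Without 1 of the KO libraries 11 to 16 members were called. The calls of Mrps18c, Mrps11, Mrps25, Mrpl13, Mrpl12, Mrpl47, Mrpl28 and Mrpl45 held without any 1 library. Without naive KO libraries 3 and 4 together, Mrpl45 (edgeR adjusted p = 0.0997), Mrpl42 (0.0611), Mrpl15 (0.196) and Mrpl49 (0.196) lost their calls. The others were lost without 1 of the libraries: Mrpl9 without KO thymus library 2, Mrpl15 without naive 3, Mrpl18 without naive 2, Mrpl42 without thymus 3 or naive 2 or 3, Mrps9 without thymus 1, 3 or 4 or naive 1 or 2, and Mrpl49 without thymus 2, 3 or 4 or naive 2, 3 or 4 (edgeR adjusted p = 0.0516 to 0.1). Mrpl49 also lost its call with mean log centring (edgeR adjusted p = 0.0506), with no filter (edgeR adjusted p = 0.132) and by DESeq2 (DESeq2 adjusted p = 0.064). Mrpl15 lost its call with mean log centring (edgeR adjusted p = 0.0521) and Mrps9 with no filter (edgeR adjusted p = 0.0553). In all 3 genotypes 11 of 11 tested cycling markers were lower in naive than in thymic libraries, and the median of those markers was -1.66 in WT, -1.76 in Het and -2.15 in KO cells on the log2 scale. Thymic double positive markers were also lower (2 of 2 in each genotype). B cell markers were called higher in naive cells (3 of 6 in WT, 1 in Het and 3 in KO), and so were erythroid markers (0 of 5 in WT, 4 in Het and 4 in KO). CD8 T cell markers were called lower for 2 of 8 in each genotype, and in KO cells 1 of 8 CD8, 1 of 2 CD4 T cell markers and the 1 tested myeloid marker were called higher. The part of these markers in the member values was not tested. In these bulk libraries, fewer cells of a kind and less RNA per cell cannot be told apart.

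**Figure D4:**
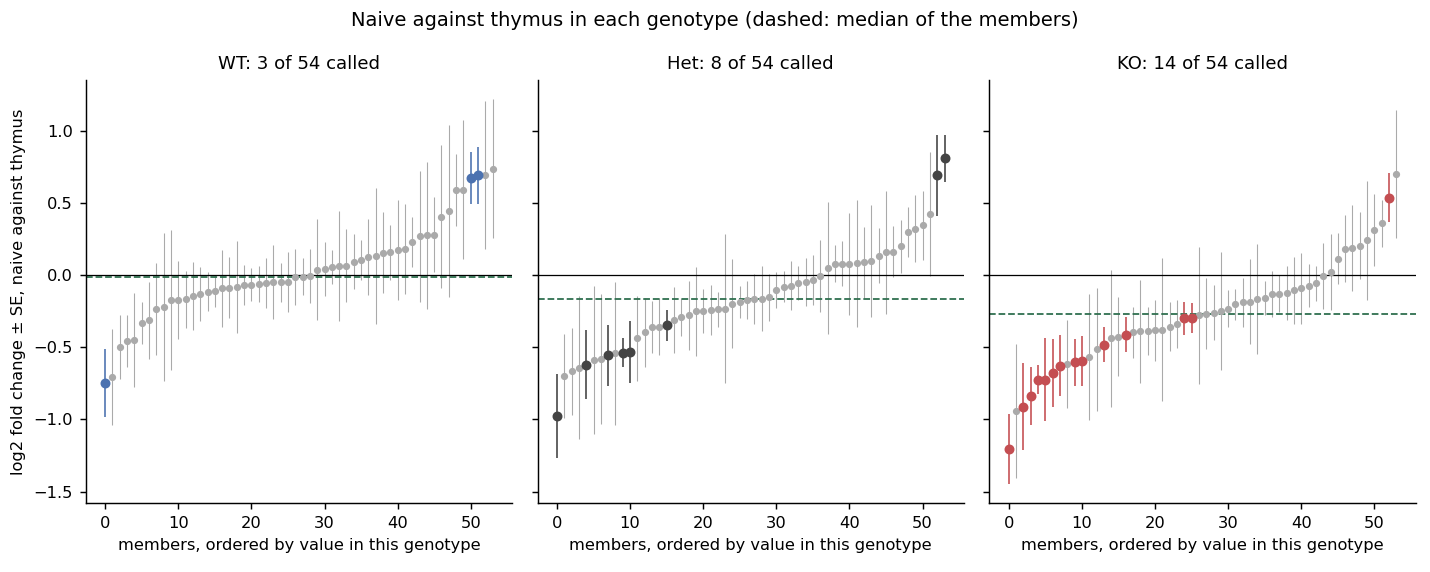
Log2 fold change ± SE of the 54 tested members between naive and thymic libraries in WT, Het and KO mice, each ordered by value; coloured or dark points are called and the dashed line is the median of the members. Medians are -0.01 in WT, -0.17 in Het and -0.27 in KO, and 13 of the 14 members called in KO cells are lower.

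The difference between genotypes in this step was tested directly as the KO against WT change in naive cells less that in thymus. Mrps18c and Mrps11 passed, 2 of 54 members beside 6.34% of all tested genes. The interaction was -0.61 ± 0.15 for Mrps18c (edgeR adjusted p = 0.00755) and -1.33 ± 0.36 for Mrps11 (edgeR adjusted p = 0.017). For Mrps18c the parts were a higher level in KO thymus (36.1 ± 2.38 CPM in WT, 46.3 ± 1.98 in KO) and values in naive cells of 33.5 ± 2.80 CPM in WT and 28.0 ± 2.43 CPM in KO libraries, a comparison that did not pass alone (edgeR adjusted p = 0.081). For Mrps11 the KO thymus libraries also lay above all WT thymus libraries (1.86, 2.44 and 3.02 CPM), without passing alone (edgeR adjusted p = 0.0809). The Mrps11 call was lost without WT thymus library 1 (edgeR adjusted p = 0.0546) and that of Mrps18c without naive KO libraries 3 and 4 together (-0.53, edgeR adjusted p = 0.0637). The median interaction was -0.24 over the members, with 9 above and 45 below 0, and -0.00 over all tested genes. Of 11 tested cycling markers 5 were also called lower in this interaction, and their part was not tested.

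Between memory and naive cells 1 or 2 members were called in each genotype, all higher in memory cells. In WT cells Mrpl52 was the called member (15.1% of all tested genes were called): it stood at 17.3, 13.9, 17.4 and 13.6 CPM in naive and 21.6, 18.2, 23.7 and 21.7 CPM in memory libraries, which did not overlap. The log2 fold change was 0.46 ± 0.13 (edgeR adjusted p = 0.00838), and the call was lost without WT naive library 4 (edgeR adjusted p = 0.0596). In Het cells Mrpl52 was higher by 0.55 ± 0.13 (edgeR adjusted p = 0.00118), with 16.9% of all tested genes called. Mrpl19 was the other called member in Het cells (1.61 ± 0.47, edgeR adjusted p = 0.0116), at 0.491, 0.693, 0.118 and 0.276 CPM in naive and 1.07, 1.60, 1.73 and 0.731 CPM in memory libraries, and its call was lost without Het naive or memory library 3 (edgeR adjusted p = 0.0534 and 0.0532). Mrpl19 had at most 14 counts in any library, and 1962 of its 5450 exon bases overlap Gcfc2 on the opposite strand. In KO cells Mrpl45 was called (0.88 ± 0.30, edgeR adjusted p = 0.0378, with 17.3% of all tested genes called), at 1.96, 2.06, 2.53 and 2.54 CPM in memory libraries. That call was lost by DESeq2 (DESeq2 adjusted p = 0.0597), without naive KO libraries 3 and 4 together (0.75, edgeR adjusted p = 0.204) and without KO naive library 2, 3 or 4 or KO memory library 2, 3 or 4 (edgeR adjusted p = 0.0506 to 0.107). Mrpl52 in KO cells had 0.32 ± 0.12 (edgeR adjusted p = 0.0596). The median over the members was 0.11 in WT, 0.15 in Het and 0.13 in KO cells, beside 0.00, 0.00 and 0.01 over all tested genes. Of 11 cycling markers 2 were called higher in memory cells in WT, 3 in Het and 7 in KO. Of 2 tested CD4 T cell markers 1 was called higher in each genotype, and in Het cells the other was called lower. Of 2 tested thymic double positive markers 1 was called lower in each genotype. The part of these markers in the member values was not tested. No member was called in the test of whether the KO effect differed between memory and naive cells, by edgeR or DESeq2 (0 of 54, and 0 at an unadjusted p under 0.05 by either tool, with 1.79% of all tested genes called).

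**Figure D5:**
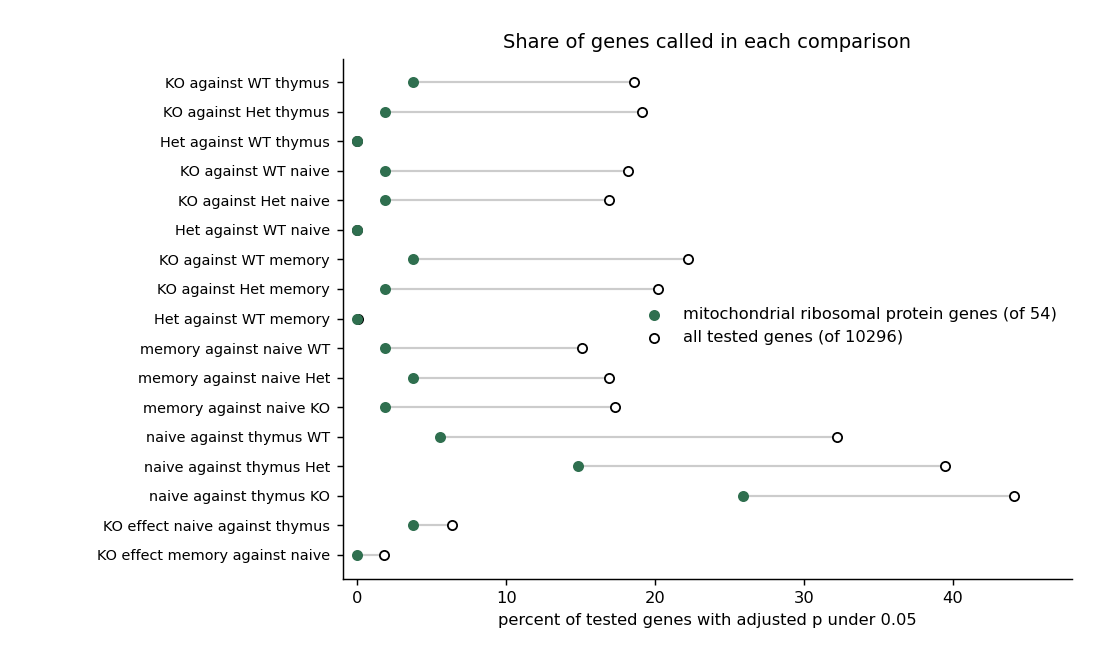
Percent of the 54 tested members (filled) and of all 10296 tested genes (open) called at an adjusted p under 0.05 in each of 17 comparisons. In KO against WT thymus 3.7% of members and 18.6% of all tested genes were called, and the highest share of members, 25.9%, was in naive against thymus KO cells.

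In each comparison with calls among all genes, the share of members called was below that of all tested genes. Members had fewer counts than most genes, so the shares were also taken by count. Among the 4483 tested genes with a mean under 100 counts 13.9% were called in KO against WT thymus, 15.3% for naive and 19.7% for memory cells, where 0, 1 and 1 of the 44 members under this limit were called. Among the 5813 genes above it 22.3%, 20.5% and 24% were called, and 2, 0 and 1 of the 10 members above it.

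Correlation between members within groups was weak. Over 35 libraries, with group means removed, the correlation of log2 CPM between pairs of members had a median of 0.02 and ran from -0.65 to 0.54. It was 0.21 for Mrps11 and Mrpl46. These values share library size and are given as a description.

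Other genes of mitochondrial protein synthesis, from lists put together by function, were tested in the same fits, in which 18.6%, 18.2% and 22.2% of all tested genes were called between KO and WT cells of thymus, naive and memory subsets. Of 17 tested assembly factors 1 was higher in thymus (C1qbp, 0.35 ± 0.11, edgeR adjusted p = 0.0192), 1 was lower in naive (Mrm3) and 3 were lower in memory cells (Nsun4, Mrm3 and Mtg1, which methylate ribosomal RNA or, for Mtg1, hydrolyse GTP during assembly). C1qbp stood at 47.3 ± 3.67 CPM in KO and 37.1 ± 2.96 CPM in WT thymus. Of 13 translation factors edgeR called 0 in thymus and 0 in naive cells (0 and 1 at an unadjusted p under 0.05), and Mrrf, the ribosome recycling factor, was lower in KO memory cells (-0.48 ± 0.17, edgeR adjusted p = 0.0375). Among the genes for charging mitochondrial tRNAs, Vars2 (-0.33 ± 0.10, edgeR adjusted p = 0.0114) and Gatb (-0.43 ± 0.15, edgeR adjusted p = 0.0279) were lower in KO memory cells.

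Of 6 tested genes of mitochondrial DNA maintenance and transcription, Polg, the DNA polymerase of mitochondria, was higher in KO cells of all 3 subsets, with log2 fold changes of 0.19 ± 0.07 (thymus), 0.22 ± 0.06 (naive) and 0.29 ± 0.06 (memory, edgeR adjusted p = 0.0438, 0.0121 and 0.00046). Mean log centring moved the median of all genes in these 3 comparisons by -0.105 (thymus), -0.114 (naive) and -0.112 (memory). The values given for Polg and the other genes of these lists are from TMM scaling. Twnk, the mitochondrial helicase gene whose exons overlap Mrpl43, was lower in KO naive cells (-0.48 ± 0.16, edgeR adjusted p = 0.0269), where Mrpl43 stood at 53.0, 53.2, 50.1 and 58.1 CPM in KO and 59.1, 46.0, 59.9 and 63.3 CPM in WT libraries. The 2 ribosomal RNAs of mitochondria and the 7 tested of 13 mitochondrially encoded proteins were not called in any of the 3 comparisons by edgeR (0 called, and 0 at an unadjusted p under 0.05). Summed over the protein genes, group means ran from 44.4 CPM in KO memory to 66.5 CPM in WT naive cells. Those of the 2 ribosomal RNAs ran from 3790 CPM in KO naive to 5129 CPM in Het memory cells. How fully these mRNA libraries sample such RNAs was not tested.

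Of the 9 regulators, Ppargc1a, a coactivator of mitochondrial biogenesis, was the one with the widest difference. Its level was 0.216 ± 0.280 CPM in WT and 2.76 ± 1.36 in KO thymus, 1.25 ± 0.858 and 8.16 ± 2.36 in WT and KO naive, and 0.525 ± 0.360 and 10.7 ± 2.42 in WT and KO memory cells (n = 3 in WT thymus and 4 elsewhere), with no overlap of library values in any subset. The edgeR adjusted p for Ppargc1a was 0.000589 (thymus), 0.000265 (naive) and 2.25e-07 (memory). Gabpb1, which joins GABPA on ETS motifs, was lower in KO naive cells (-0.30 ± 0.09, edgeR adjusted p = 0.0132), as was the coactivator Pprc1 (-0.31 ± 0.09, edgeR adjusted p = 0.00847), and Nrf1 was lower in KO memory cells (-0.22 ± 0.08, edgeR adjusted p = 0.0463). Myc was not called in any of the 3 subsets (edgeR adjusted p = 1 for thymus, 0.363 for naive and 0.282 for memory cells).

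Between WT subsets, Tufm, the elongation factor that brings tRNAs to the mitochondrial ribosome, was higher in memory than in naive cells (44.0 ± 4.73 and 32.2 ± 2.23 CPM, log2 fold change 0.45 ± 0.10, edgeR adjusted p = 0.000479), as was the elongation factor Gfm1 (0.36 ± 0.10, edgeR adjusted p = 0.0133). Mrrf was lower in naive than in thymic cells (7.08 ± 1.04 and 13.3 ± 2.17 CPM, -0.91 ± 0.18, edgeR adjusted p = 9.01e-05), and so was Gfm1 (-0.37 ± 0.11, edgeR adjusted p = 0.00814). Wars2 (0.76 ± 0.17, edgeR adjusted p = 0.000615) and Nars2 (0.63 ± 0.20, edgeR adjusted p = 0.011), which charge mitochondrial tRNAs, and the assembly factors Mtg2 (0.44 ± 0.16, edgeR adjusted p = 0.0245) and Rpusd4 (0.42 ± 0.17, edgeR adjusted p = 0.0492) were higher in naive than in thymic WT cells.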

How the data were processed

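RNA of flow sorted CD8 T cells was extracted with Trizol, made into strand-specific mRNA libraries and read as single reads, per the labels' protocols. The tools were TopHat2 2.1.0 and HTSeq 0.9.1 on GRCm38, per the submitters' processing notes, and the annotation release and strand setting of the counting are not given in the sources used here. The authors deposited raw counts per Ensembl gene. Symbols and positions came from GENCODE M21.

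Low genes were dropped with filterByExpr (grouped by all 9 groups), libraries scaled by TMM (factors 0.927 to 1.07), and group means fitted with edgeR 4.0.16 in R 4.3.3 (robust quasi-likelihood fit, 26 residual degrees of freedom). CPM use the same scaling. P values are two-sided and measure the spread between these samples, since no label states whether each replicate is its own animal. Standard errors were taken as the absolute log2 value divided by the root of the F statistic. The test was checked on simulated counts.

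The members and the lists were chosen with earlier results of these data known. Named are 11 members of known role, members called in each comparison (up to 8 each way in the main ones, 3 each way in the others), the 5 highest and 5 lowest per kilobase, the 5 most and 5 least variable, untested members, and up to 4 called genes per partner list; others were chosen after their values were seen. Where a comparison had more calls in a direction than the rule names, the remaining ones are listed by symbol.

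Alternatives were RLE scaling, mean log centring, no filter, CPM of at least 1 in 4 libraries, only the libraries compared, a fit that was not robust, DESeq2 1.42.0, a sex covariate read from sex-linked transcripts, the replicate number as a block, and each replicate left out. Leaving out naive KO libraries 3 and 4 was added after seeing the data. Deviations from group means correlated at over 0.1 in every pair of equal numbers for KO against Het naive (0.144 to 0.262) and memory against naive WT libraries (0.206 to 0.31), a pairing read from the data, and the block changed no call in either. A called gene of the partner lists is not reported here.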

Additional observations from a re-analysis of the deposited data

Results flagged for a closer look

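In groups of 4 libraries, 200 combinations of 25 named members and 8 groups were searched for a library far from the others, and 12 were found (6%), where chance gives about 1 in 20. KO naive library 1 had 1.01 CPM of Mrps11 (others 1.82 to 1.97) and 0.76 CPM of Mrpl19 (others 0.249 to 0.329). Het thymus library 4 had 39.5 CPM of Mrpl15 (others 27.3 to 28.6), 16.6 CPM of Mrpl52 (others 11.9 to 12.7) and 0.263 CPM of Mrps5 (others 0.694 to 0.777). In KO memory cells, library 4 had 37.6 CPM of Mrps18c (others 30.6 to 31.6) and 22.8 CPM of Mrps9 (others 20.4 to 20.6), library 1 had 3.09 CPM of Mrpl13 (others 3.94 to 4.03), and library 2 had 5.62 CPM of Mrpl47 (others 4.46 to 4.51). WT memory library 2 had 1.94 CPM of Mrpl49 (others 1.61 to 1.65), WT naive library 3 had 2.56 CPM of Mrpl42 (others 2.81 to 2.83), and KO thymus library 1 had 12.7 CPM of Mrpl58 (others 10.5 to 10.8).

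The effect of genotype differed between naive and thymic cells for Mrps18c (interaction -0.613 on the log2 scale) and Mrps11 (-1.33), by edgeR's test of the difference itself.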

How the results depend on the processing

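Refits were made for the members called in each comparison, and none of these reversed its direction. Of these refits, 567 stayed on their side of the threshold and 123 lost the call. In KO against WT naive cells, where 1 member was called, 0 were called with RLE scaling, no filter, the replicate block, only the libraries compared, DESeq2, or without naive KO libraries 3 and 4, and 3 with mean log centring. In KO against WT thymus, where 2 were called, mean log centring gave 0, and no filter and only the libraries compared gave 1 each. In KO against WT memory, where 2 were called, mean log centring gave 4, no filter 0 and DESeq2 1. KO against Het memory gave 4 with mean log centring and 0 with no filter, KO against Het naive 0 with no filter and 0 without naive KO libraries 3 and 4, and KO against Het thymus 2 with the replicate block, each in place of 1. Memory against naive cells gave 1 in Het in place of 2 with only the libraries compared, and in KO in place of 1 gave 0 with no filter, 2 with only the libraries compared and 0 by DESeq2. Naive against thymus Het cells gave 5 in place of 8 with mean log centring and with no filter, and the KO effect in naive against thymus gave 1 in place of 2 with no filter and without naive KO libraries 3 and 4. The causes were not tested, except that no filter tests more genes and the last setting uses fewer libraries.

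Mean log centring moved summed levels to 399 CPM in WT, 417 in Het and 416 in KO thymus, 403 in WT naive, 352 in KO naive, 422 in WT memory, 413 in Het memory and 369 in KO memory. It also moved the share of higher genes among all calls in KO against Het cells from 61.9% to 36.5% in thymus, 61.7% to 36% in naive and 57.5% to 32.7% in memory. The size of its shift in the median of all genes in KO against WT cells was 0.114 in naive and 0.112 in memory.

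Leaving out 1 library at a time gave 0 to 2 called members in KO against WT thymus, 0 to 1 in naive and 0 to 3 in memory, 1 to 2, 0 to 1 and 0 to 1 in KO against Het, and 0 in every Het against WT fit. Memory against naive gave 0 to 2 in WT, 1 to 4 in Het and 0 to 1 in KO, and naive against thymus 2 to 5, 4 to 8 and 11 to 16. The KO effect gave 1 to 2 for naive against thymus and 0 for memory against naive. Summed levels ranged from 386 to 400, 403 to 419 and 438 to 447 CPM in WT, Het and KO thymus, 382 to 387, 363 to 377 and 360 to 367 in naive, and 411 to 415, 399 to 406 and 388 to 395 in memory. Replicate numbers recur across groups, but the labels do not say that they pair samples; beyond the counts above and the Mrpl52 call in KO against WT thymus, the replicate block changed no call of a named member. With a median of 40.4 counts per member, small differences were not detectable at this depth.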
